A study of Mus musculus with 12 samples.

Results

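Red blood cell genes were followed in mouse liver, chosen as a possible measure of the red cell RNA in the tissue. The set held 5 genes, chosen by symbol from the 48537 genes of the deposited table: the adult alpha globin genes Hba-a1 and Hba-a2, the adult beta globin genes Hbb-bs and Hbb-bt, and Alas2, the erythroid form of the enzyme that starts haem synthesis. All 5 were found, and all 5 were among the 17957 genes with a mean of at least 1 TPM (an abundance per transcript length, as a share of the library's total) that were tested. On log2(TPM + 1), Alas2 had a Pearson r of 0.30 with the summed globin genes over the livers. It was -0.08 with group means removed. The 5 genes are thus not shown to be 1 measure of red cell RNA. The samples were 12 whole livers taken at zeitgeber time 10, so 10 h into the light phase. The 4 control livers are wildtype by genotype and carry YFP in their titles. The 4 DKO-labelled livers are REV-ERBs double-knockout by genotype and also carry YFP in their titles, and their deposited columns add Cre. The 4 re-expressing livers are DKO livers by title with REV-ERBalpha-WT added, and their deposited columns name YFP and WT. Cre and the knockout cannot be told apart in these groups. REV-ERBalpha and REV-ERBbeta are repressors of the circadian clock, encoded by Nr1d1 and Nr1d2. The age and sex of the mice, the way Cre, YFP and REV-ERBalpha were delivered, and whether the livers were flushed of blood are not stated in the labels. Whether the library kit's depletion step also removed globin RNA is not stated either, so the absolute level of the globin genes carries that limit.

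Adult haemoglobin joins alpha and beta chains, each holding a haem. Developing red cells switch on the alpha and beta clusters together with Alas2 under factors such as GATA1 and KLF1, and mouse red cells keep some globin RNA when they leave the marrow as reticulocytes and lose it as they mature. The adult liver makes few or no red cells but holds much blood in its sinusoids, and its hepatocytes make haem with Alas1, the other form of the enzyme. In whole tissue, more red cells and more RNA per red cell cannot be told apart, and neither can fewer cells and less RNA per cell.

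The members of each globin pair are near copies, which limits how far their reads can be told apart, so the bases that separate them are shown first. In build mm10, Hba-a1 lay on chromosome 11 at 32283511 to 32284465 and Hba-a2 at 32296489 to 32297298, both on the plus strand. Hbb-bt lay on chromosome 7 at 103812524 to 103813996 and Hbb-bs at 103826534 to 103828096, both on the minus strand. The coding sequences of Hba-a1 and Hba-a2 had 426 bases each and differed at 1 base, C381T, counted from 1 at the first base of the start codon, with the Hba-a1 base first. The stretch around that base, from 351 to 411, is printed 5′ to 3′ with the differing base in capitals.
Hba-a1: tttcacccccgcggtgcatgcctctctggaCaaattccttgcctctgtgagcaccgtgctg
Hba-a2: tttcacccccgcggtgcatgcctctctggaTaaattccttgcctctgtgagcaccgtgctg
The coding sequences of Hbb-bs and Hbb-bt had 441 bases each and differed at 1 base, C417T, with the Hbb-bs base first. Their stretch from 387 to 441 is printed in the same way.
Hbb-bs: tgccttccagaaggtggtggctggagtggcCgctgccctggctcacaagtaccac
Hbb-bt: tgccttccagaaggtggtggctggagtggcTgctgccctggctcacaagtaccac
Each difference fell on base 3 of its codon, and the 2 proteins of a pair had 0 differences over 142 residues for alpha and 147 for beta globin. Over whole spliced transcripts, which also differ outside the coding part, 67.54% of the 50-base words of Hba-a1 occurred in Hba-a2 and 86.93% of those of Hba-a2 in Hba-a1. For the beta pair 65.8% of the words of Hbb-bs occurred in Hbb-bt and 58.26% the other way, and each of the alpha genes shared 0 words with each of the beta genes. The sources used here do not say how reads that match both copies were counted, so the split within a pair is uncertain, and the differences of the summed pairs are given beside those of the single genes. Alas2, on chromosome X at 150547375 to 150570638 on the plus strand, shared 311 exonic bases with Apex2, a DNA repair gene on the opposite strand that stood at 5.52 to 8.23 TPM. The libraries were made with a strand-specific kit, and the sources used here do not state which strand was counted.

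Promoters are shown to compare the upstream sequence of the globin genes with that of Alas2, and nothing about the values is drawn from them. RefSeq promoter windows of 120 bases before the start site (build GRCm38.p6) were found for all 5 genes. The window of Hba-a2 is given for the globin genes as the part upstream of the GENCODE gene start, chr11:32296372-32296488 on the plus strand, and that of Alas2 as chrX:150547297-150547374 on the plus strand. Capitals mark the motif CCAAT, then the motif CACCC and then TATAA in Hba-a2, and the reverse strand of GATAA in Alas2.
Hba-a2: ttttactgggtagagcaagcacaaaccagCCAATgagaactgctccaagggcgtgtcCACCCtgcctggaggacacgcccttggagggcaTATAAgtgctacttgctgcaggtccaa
Alas2: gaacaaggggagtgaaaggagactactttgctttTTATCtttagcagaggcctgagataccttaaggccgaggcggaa
CACCC, the core bound by KLF1, occurred on either strand in 5 of the 5 windows and in 31.71% of all 32851 windows of that length. In Alas2 it lay on the reverse strand between bases -40 and -26 from the RefSeq start site, outside the printed part. CCAAT occurred on either strand in 4 of 5 and in 21.29% of all windows, and TATAA on the coding strand in 4 of 5 and in 8.532%. GATAA, a core bound by GATA factors, occurred on either strand in 1 of 5, Alas2, and in 10.499% of all windows. These letters describe the windows and say nothing of binding in liver.

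Each library held between 5621667 and 6906221 reads, recovered as whole reads from the TPM steps. Of the REV-ERB genes, Nr1d1 had 68.7 ± 5.53 TPM in the control and 82.5 ± 7.39 in the DKO group, and Nr1d2 had 96.6 ± 14.9 and 90.4 ± 7.91 (SD, n = 4). Which part was deleted is not given, so these sums over whole genes do not check the deletion, and the group is called by its label. Nr1d1 stood at 191 ± 22.4 TPM in the re-expressing livers (SD, n = 4). The tissue label was met by hepatocyte genes, with Alb at a mean of 21902 TPM over the 12 livers, Apoa1 at 7122 and Ttr at 6159. The 9 Kupffer cell genes summed to 1055 TPM in control replicate 1 and 1083 in re-expression replicate 1 against 431 to 789 in the other 10 livers, so these 2 livers stood apart, and the member results are also given without them.

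Among the 5 genes Hbb-bs was the most abundant by mean over the 12 livers, at 188 TPM, followed by Alas2 at 107, Hba-a1 at 86.9, Hba-a2 at 74.2 and Hbb-bt at 42.0. Ranked by mean TPM over all genes of the table, Hbb-bs was at place 702 and Hbb-bt at 2766. The 4 globin genes together made between 0.0175% and 0.0735% of all TPM. The order of neighbours was not firm in every group. In control livers Hbb-bs and Alas2 overlapped and were in that order in 2 of 4 livers, whereas in DKO-labelled livers every liver had more Hbb-bs than any liver of that group had Alas2. Hba-a1 and Hba-a2 overlapped in all 3 groups, and Hba-a2 exceeded Hbb-bt in 4 of 4 livers of each group although the ranges of the groups overlapped.

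**Figure D1:**
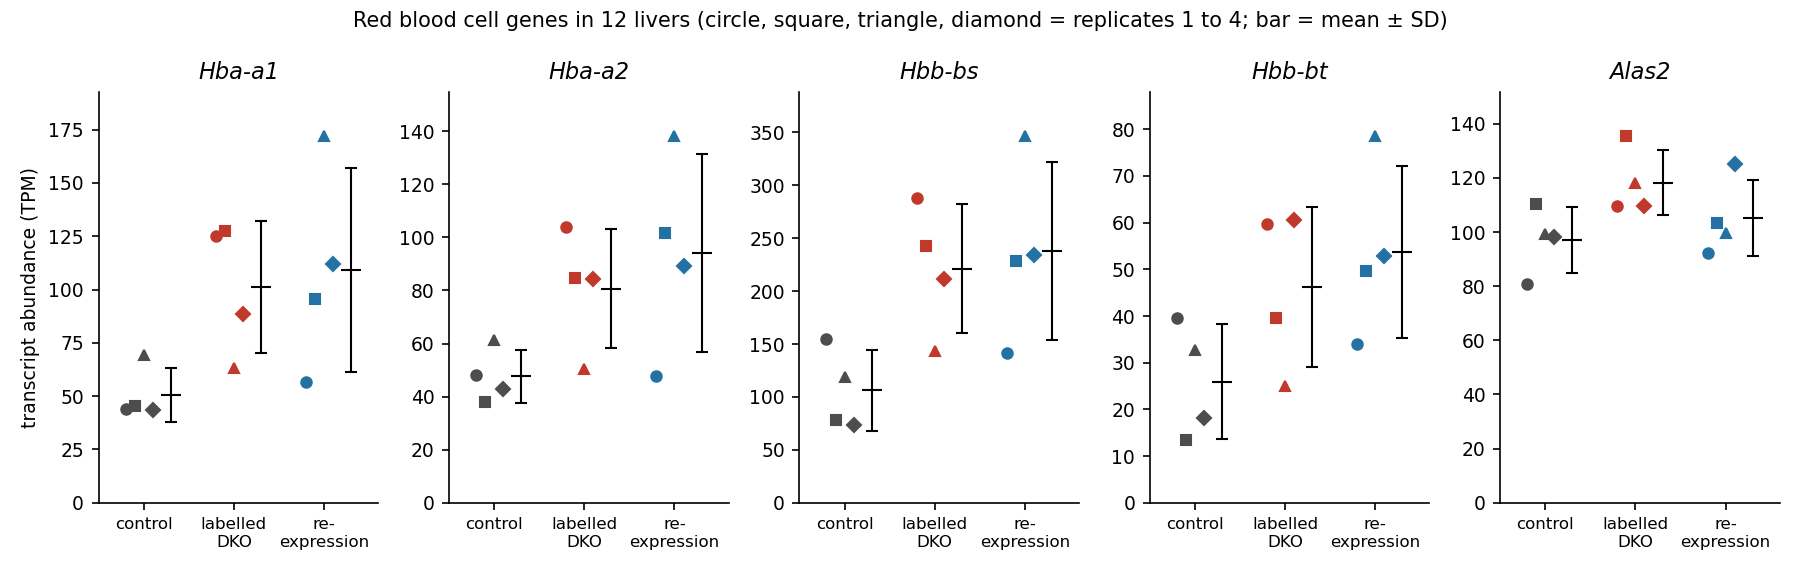
TPM of the 5 red blood cell genes in each of 12 livers, by group, with the mean and SD of 4 livers beside the points; each panel has its own axis from 0. For Hba-a1 and Hba-a2 3 of 4 livers of the DKO and of the re-expression group lie above every control liver, for Hbb-bt 2 of 4 DKO-labelled livers do, and Alas2 spans a narrow range from 80.9 to 135 TPM.

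Hba-a1 encodes an alpha chain. It stood at 44.2, 45.3, 69.3 and 43.3 TPM in control livers 1 to 4, at 125, 128, 63.2 and 88.5 in DKO-labelled livers, and at 56.6, 95.8, 172 and 112 in re-expressing livers. In both DKO and re-expression groups 3 of 4 livers were above every control liver, and the fourth, DKO replicate 3 or re-expression replicate 1, lay below control replicate 3. The mean was 50.5 ± 12.6 TPM in control livers, 101 ± 31.0 in DKO-labelled livers and 109 ± 48.0 in re-expressing livers (SD, n = 4), a ratio of means of 2.16 for re-expression over control.

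Hba-a2 encodes the same alpha chain. Its values were 48.1, 38.1, 61.5 and 43.0 TPM in control livers, 104, 84.5, 50.3 and 84.3 in DKO-labelled livers, and 47.6, 102, 138 and 89.1 in re-expressing livers. The same 2 livers were the low ones, and both again fell inside the control range. The mean was 47.7 ± 10.1, 80.7 ± 22.3 and 94.2 ± 37.4 TPM in the 3 groups (SD, n = 4), with ratios to control of 1.69 and 1.98.

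Hbb-bs encodes a beta chain and had the most RNA of the 4 globin genes in every liver. It stood at 155, 78.0, 119 and 73.2 TPM in control livers, at 288, 243, 143 and 211 in DKO-labelled livers, and at 142, 229, 347 and 234 in re-expressing livers. Control replicate 1, at 155 TPM, was above the lowest liver of each of the other groups, and the ranges overlapped only through that liver. The means were 106 ± 38.5, 221 ± 60.7 and 238 ± 84.0 TPM (SD, n = 4), ratios to control of 2.08 and 2.24.

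Hbb-bt encodes the same beta chain and was the lowest of the 5 by mean in each group. Its values were 39.7, 13.4, 32.6 and 18.2 TPM in control livers, 59.7, 39.7, 25.1 and 60.5 in DKO-labelled livers, and 34.0, 49.7, 78.6 and 52.8 in re-expressing livers. Only 2 of 4 DKO-labelled livers were above every control liver, against 3 of 4 re-expressing livers. The means were 26.0 ± 12.3, 46.2 ± 17.1 and 53.8 ± 18.5 TPM (SD, n = 4), ratios to control of 1.78 and 2.07. It had the fewest reads of the 5, from 17 to 101 a library, and 17 reads carry an exact 95% Poisson interval of 9.90 to 27.2 reads, which covers counting error only.

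Alas2 makes the first product of haem synthesis in red cells. It stood at 80.9, 110.3, 99.3 and 98.2 TPM in control livers, at 109.8, 135, 118 and 109.7 in DKO-labelled livers, and at 92.4, 103, 99.6 and 125 in re-expressing livers. The ranges of all 3 groups overlapped, and 4 of 4 DKO-labelled livers were above the control mean. The means were 97.2 ± 12.1, 118 ± 12.1 and 105 ± 14.0 TPM (SD, n = 4), ratios to control of 1.22 and 1.08. The coefficient of variation within a group was 10.3% to 13.4% for Alas2 and 21.1% to 47.3% for the globin genes. Alas2 had 428 to 702 reads a library, more than any other of the 5, so its counting error was the smallest in proportion.

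DKO-labelled livers were compared with control livers first, which addresses whether the RNA of these genes differs with the label. All 4 globin genes had higher means in the DKO-labelled livers, and none of the 5 members passed the test. With limma on log2(TPM + 1) and Benjamini-Hochberg adjustment over 17957 genes, 0 of 5 members were called, against 5.33% of all genes tested. Without adjustment 5 of 5 members were higher at p under 0.05, against 9.6% of all genes tested that were higher by that rule. The members are not separate results, since they share livers, the globin genes varied together and near copies can share reads. They were also chosen with earlier results of these data known. That count of 5 was 2 without DKO replicate 2, and 3 without DKO replicate 1 or 4, without control replicate 1, 2 or 4 and under a replicate block. The groups did not overlap for 0 of 5 members, against 11.5% of all genes tested. The median difference of the members was 0.85 on the log2 scale, beside 0.001 for all genes tested. Hbb-bs came nearest to the threshold, with a difference of 1.07 ± 0.31 (SE, 95% interval 0.40 to 1.75, limma adjusted p = 0.0733). Alas2 differed by 0.28 ± 0.12 (SE, 95% interval 0.03 to 0.54, limma adjusted p = 0.214). The other globin differences were 0.96 for Hba-a1, 0.85 for Hbb-bt and 0.72 for Hba-a2, with limma adjusted p between 0.120 and 0.255. Without DKO replicate 2 the 95% intervals of Hba-a2, Hbb-bt and Alas2 ran from -0.07 to 1.44, from -0.05 to 1.83 and from -0.05 to 0.48. With the near copies summed, the difference was 0.86 for the alpha pair (limma adjusted p = 0.151) and 1.04 for the beta pair (limma adjusted p = 0.0922). The difference in size between these genes was not tested.

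The call of Hbb-bs changed with the setting, and as a call on 1 copy of a pair it carries the uncertain split of reads. Without control replicate 1 the difference was 1.28 and the limma adjusted p was 0.0498, and 1 of 5 members was called. The same gene was also called with sample quality weights (adjusted p = 0.0477) and with voom on the recovered reads (adjusted p = 0.0250). Control replicate 1 was the control liver highest in Hbb-bs and Hbb-bt but not in the alpha genes. It also held the highest sums of neutrophil genes (67.4 TPM against 9.72 to 40.0 in the other 11 livers) and of B cell genes (224 against 57.9 to 117), and their part in the result was not tested. With control replicate 1 and re-expression replicate 1 both left out, a choice made after the data were seen, Hbb-bs differed by 1.28 (limma adjusted p = 0.0301) and 1 of 5 members was called.

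**Figure D2:**
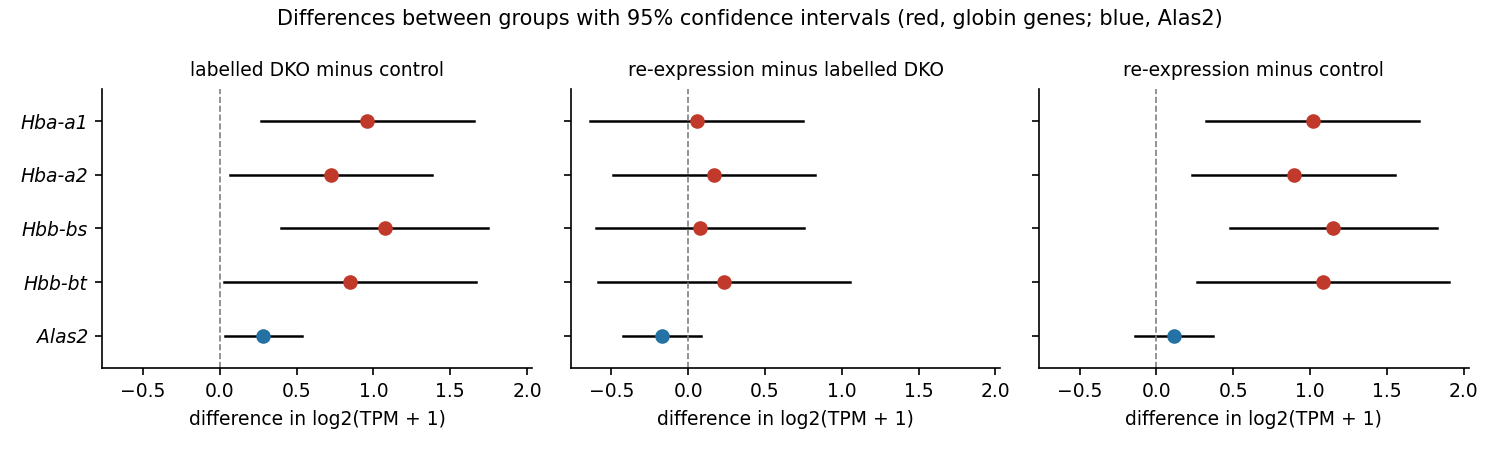
Difference in log2(TPM + 1) of each red blood cell gene in 3 comparisons, with limma's 95% confidence interval; red points are globin genes and the blue point is Alas2. Globin differences lie between 0.72 and 1.15 in both comparisons with control livers and between 0.06 and 0.24 between re-expressing livers and DKO-labelled livers.

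The authors' deposited table gave its own fold changes for comparisons it numbers without naming the groups. Over 17957 genes the log2 changes of the authors' deposited table in its comparison 1 had a Pearson correlation of 0.936 with the DKO against control differences here, a description across genes that served to name it. In that comparison the authors' deposited table listed Hbb-bs at a log2 fold change of 1.06 with an adjusted p of 0.00301, past the threshold, where 9.19% of the genes with an adjusted p were past it. The authors' deposited table listed Hba-a1 at 0.99 (adjusted p = 0.0887), Hbb-bt at 0.84 (adjusted p = 0.117), Hba-a2 at 0.76 (adjusted p = 0.116) and Alas2 at 0.28 (adjusted p = 0.184). The call of Hbb-bs thus differed between the authors' deposited table and the fit here.

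Re-expressing livers were then compared with DKO-labelled livers, which addresses whether adding REV-ERBalpha moved these genes. No member passed the test between these groups. With limma 0 of 5 members were called, against 0.0724% of all genes tested, and 0 of 5 passed an unadjusted p under 0.05, against 6.19%. The groups did not overlap for 0 of 5 members, against 4.25%. The median difference was 0.08, beside 0.01 for all genes tested. Hbb-bs differed by 0.08 with a 95% interval of -0.60 to 0.75. The summed pairs differed by 0.11 for alpha (95% interval -0.56 to 0.78) and by 0.10 for beta (95% interval -0.59 to 0.79). Alas2 was the 1 member with a lower mean, by -0.17 with a 95% interval of -0.43 to 0.08 (limma adjusted p = 0.983). The sign of the globin differences rested on single livers: without DKO replicate 3 they were -0.15 for Hba-a1, -0.04 for Hba-a2, -0.12 for Hbb-bs and -0.02 for Hbb-bt, and without re-expression replicate 3 those of Hba-a1, Hba-a2 and Hbb-bs were -0.20, -0.05 and -0.13. The authors' deposited table gave an adjusted p of 0.999 for all 5 members in its comparison 2, whose log2 changes correlated at 0.916 with those here over 17957 genes, and 0.495% of the genes with an adjusted p were past the threshold there.

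Last, re-expressing livers were compared with control livers, which differ in both the knockout and the added REV-ERBalpha. This comparison shares its livers with the other comparisons and is not independent of them. The 4 globin genes again had higher means than in control livers, and Alas2 was close to its control mean. With limma 0 of 5 members were called, against 1.82% of all genes tested. Without adjustment 4 of 5, the globin genes, were higher at p under 0.05, against 6.84% of all genes tested. These genes are not separate results here either. The groups did not overlap for 0 of 5, against 7.28%. The median difference was 1.02, beside 0.01 for all genes tested. Hbb-bs differed by 1.15 ± 0.31 (SE, limma adjusted p = 0.0958), Hbb-bt by 1.08, Hba-a1 by 1.02 and Hba-a2 by 0.89, with limma adjusted p between 0.163 and 0.223 for these 3. Alas2 differed by 0.11 ± 0.12 (SE, 95% interval -0.14 to 0.37, limma adjusted p = 0.790). The summed pairs differed by 0.97 for alpha (limma adjusted p = 0.172) and by 1.14 for beta (limma adjusted p = 0.111). Calls of single copies changed with the setting here too. Without re-expression replicate 1 Hba-a2 differed by 1.18 (limma adjusted p = 0.0494) and 1 of 5 members was called. With voom on the recovered reads the member called was Hbb-bs (adjusted p = 0.0310). With control replicate 1 and re-expression replicate 1 both left out, Hbb-bs differed by 1.58 (limma adjusted p = 0.0349) and was the 1 member called.

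The sum of the 4 globin genes followed its members. It was 287, 175, 282 and 178 TPM in control livers, 576, 495, 282 and 445 in DKO-labelled livers, and 280, 476, 735 and 488 in re-expressing livers. Re-expression replicate 3 was the highest liver for each of the 4 globin genes, and its sum was 4.21 times that of control replicate 2, the lowest. The mean sum was 230 ± 62.7, 449 ± 124 and 495 ± 187 TPM (SD, n = 4), ratios to control of 1.95 and 2.15. DKO replicate 3 and re-expression replicate 1, with 282 and 280 TPM, lay within the control range of 175 to 287.

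Beta globin RNA exceeded alpha globin RNA in 12 of 12 livers. Summed beta over summed alpha TPM was 2.11, 1.10, 1.16 and 1.06 in control livers, 1.52, 1.33, 1.48 and 1.57 in DKO-labelled livers, and 1.68, 1.41, 1.37 and 1.42 in re-expressing livers. Control replicate 1 stood above all other livers, and the other 3 control livers stood below all 8 livers of the other groups. With control replicate 1 counted, the beta over alpha ratio overlapped between all groups. Within the alpha pair Hba-a1 over Hba-a2 ran from 0.919 to 1.51 over the 12 livers with a median of 1.19. Within the beta pair Hbb-bs over Hbb-bt ran from 3.49 to 6.12 with a median of 4.42. Both pair ratios overlapped between all groups and carry the uncertainty of reads shared by near copies. Hbb-bs made 41.2% to 54.1% of the globin TPM of a liver.

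Over the 12 livers the 6 pairs of globin genes had Pearson correlations of log2(TPM + 1) from 0.81 to 0.96, and from 0.64 to 0.92 after each group's mean was removed. Both copies of a pair can draw on the same reads. The 4 pairs of an alpha with a beta gene, which share 0 words of 50 bases, ran from 0.81 for Hba-a1 with Hbb-bt to 0.92 for Hba-a2 with Hbb-bs, and from 0.64 to 0.86 with the group means removed. Alas2 with single globin genes ran from 0.04 for Hbb-bt to 0.50 for Hba-a1 over the livers, and from -0.40 to 0.28 with the group means removed. Whether these correlations differ was not tested. Alas2 with the summed globin genes had a Pearson r of 0.30 and a Spearman rho of 0.31 over the 12 livers, and a Pearson r of -0.08 with the group means removed. Without the 2 livers farthest from the median of the globin sum, r was 0.56 over 10 livers. With the group means removed, the 2 farthest livers were chosen anew on those values, and r was -0.46 over the 10 left. These are descriptions over livers that share library preparation and TPM scaling. The ratio of Alas2 to globin TPM was 0.454 ± 0.164 in control livers, 0.283 ± 0.0976 in DKO-labelled livers and 0.235 ± 0.0811 in re-expressing livers (SD, n = 4), and it ran from 0.135 in re-expression replicate 3 to 0.631 in control replicate 2.

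**Figure D3:**
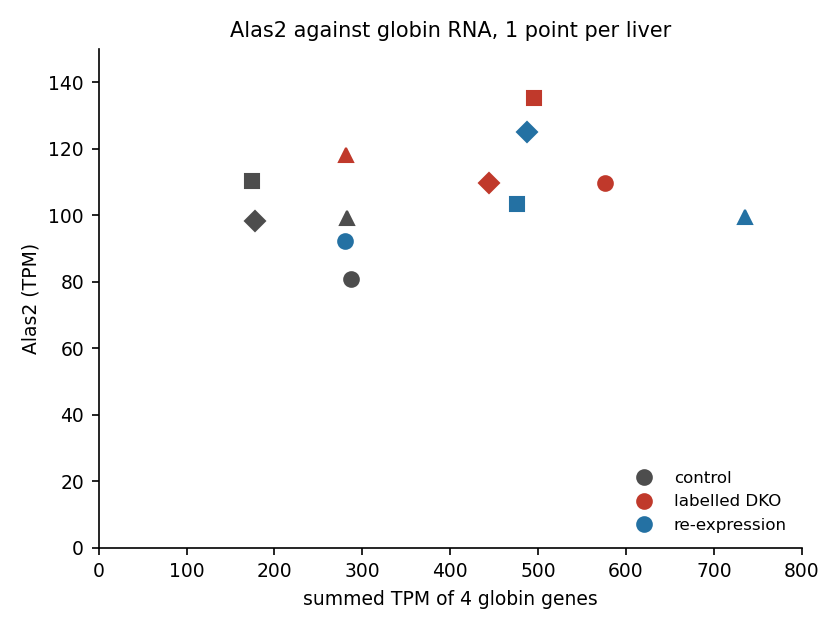
Alas2 TPM against the summed TPM of the 4 globin genes, 1 point per liver, coloured by group, with circle, square, triangle and diamond for replicates 1 to 4; both axes start at 0. Globin RNA spans 175 to 735 TPM while Alas2 stays between 80.9 and 135. The Pearson r over the 12 livers was 0.30 on log2(TPM + 1), not on the TPM drawn.

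Other genes of the red cell lists, except those of maturation and haemoglobin assembly, were mostly at or near 0 in these livers. Which cells the RNA of the listed genes came from was not tested. Of 52 genes in 4 lists of other globin genes, red cell membrane genes, erythroid transcription factors and genes of red cell maturation and haemoglobin assembly, 48 were matched in the table. Of these 28 had a mean under 1 TPM, and 10 had 0 reads in all 12 livers. For those 10 a count of 0 in a library allows up to 3 reads, which is 0.116 to 20.5 TPM by gene length and library. In the list of maturation and assembly, by contrast, 14 of 15 matched genes had a mean of at least 1 TPM. Among 17 membrane genes 14 had a mean under 1 TPM: Slc4a1, the anion exchanger band 3, reached at most 0.621 TPM. It is a defining red cell gene, and the 12 libraries held 48 of its reads in all, too few to compare groups. Gata1, which encodes the main regulator of the red cell line, had 1 read in the 12 libraries, and Gfi1b and Hemgn had 0. The embryonic genes Hbb-y, Hbb-bh1 and Hba-x had 0 reads, and the theta genes Hbq1a and Hbq1b had 2 and 1.

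**Figure D4:**
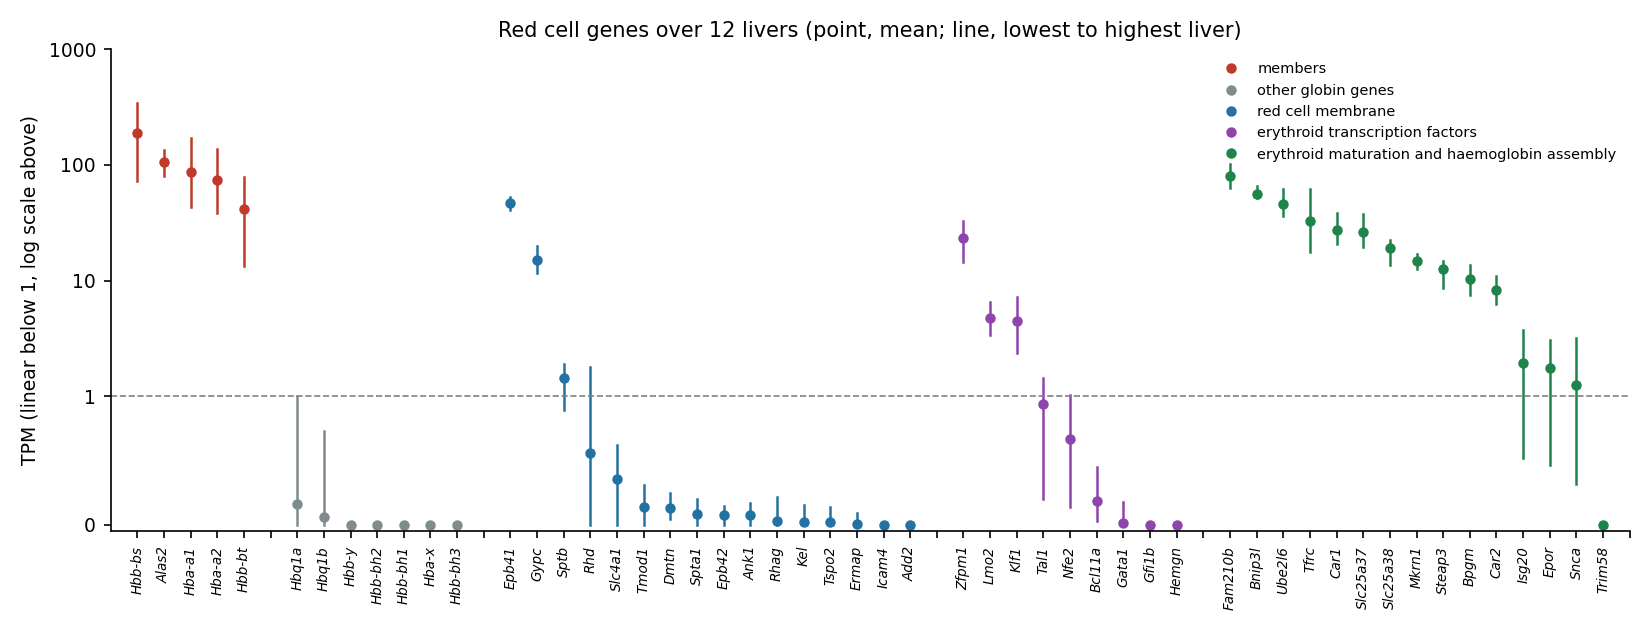
Mean TPM over 12 livers of the 5 members and of 47 other genes in 4 red cell lists, with a line from the lowest to the highest liver. The axis is linear below 1 TPM and logarithmic above, and the dashed line marks 1 TPM. The 5 members stand between 42.0 and 188 TPM, with only Epb41 of the membrane genes inside that range, and above all transcription factors. Fam210b, of the maturation and assembly list, also lies inside that range.

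Of the 20 genes of these lists that were tested, 4 were called in DKO-labelled livers against control livers, 2 higher and 2 lower, against 5.33% of all genes tested in either direction. Gypc, glycophorin C, was the 1 of 3 tested membrane genes called, at 12.1 ± 0.303 TPM in control livers and 18.0 ± 1.40 in DKO-labelled livers (SD, n = 4), a log2 difference of 0.53 (limma adjusted p = 0.00629). Among 14 tested genes of maturation and assembly 1 was called higher and 2 lower, with a median of 0.10 beside 0.001 for all genes tested. Fam210b, a mitochondrial protein that supports haem synthesis, went from 67.7 ± 3.85 to 99.0 ± 1.85 TPM (SD, n = 4, log2 difference 0.54, limma adjusted p = 0.000259). Slc25a37, mitoferrin 1, which carries iron into mitochondria, went from 34.3 ± 2.14 to 22.0 ± 1.82 TPM (SD, n = 4), a fall by 0.62 on the log2 scale with limma adjusted p = 0.000922. Ube2l6, a ubiquitin-like conjugating enzyme that interferon also induces, fell by 0.55 (limma adjusted p = 0.00358). The 3 tested transcription factors Klf1, Lmo2 and Zfpm1 were not called in any of the 3 comparisons. Tfrc, the transferrin receptor, stood at 23.6 ± 4.17 TPM in control livers and 38.4 ± 16.3 in DKO-labelled livers (SD, n = 4, limma adjusted p = 0.246), and Car1, a carbonic anhydrase abundant in red cells, at 26.2 ± 4.31 and 31.4 ± 5.81 (SD, n = 4, limma adjusted p = 0.434).

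In re-expressing livers against DKO-labelled livers 1 of the 20 tested genes was called, against 0.0724% of all genes tested. Fam210b stood at 76.1 ± 2.52 TPM in re-expressing livers (SD, n = 4) and fell by 0.37 on the log2 scale (limma adjusted p = 0.0484). That call was lost under 13 of 25 alternatives, among them leaving out any single DKO or re-expression liver, with adjusted p up to 0.170. Against control livers, re-expressing livers had 2 of 20 genes called lower and 0 higher, against 1.82% of all genes tested in either direction: Slc25a37 fell by 0.54 (limma adjusted p = 0.00504) and Ube2l6 by 0.41 (limma adjusted p = 0.0339). The call of Ube2l6 was lost under 10 of 25 alternatives, with adjusted p up to 0.109. That of Slc25a37 held under all 25.

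The 8 other genes of haem synthesis were tested in the same fit. In DKO-labelled livers against control livers 1 of 8 was called higher and 0 lower, against 5.33% of all genes tested in either direction, with a median of 0.04 beside 0.001 for all genes tested. That gene was Uros, uroporphyrinogen III synthase, at 13.3 ± 1.24 and 21.1 ± 1.39 TPM (SD, n = 4, log2 difference 0.63, limma adjusted p = 0.00149). Alas1 stood at 613 ± 28.3 TPM in control livers and 309 ± 179 in DKO-labelled livers (SD, n = 4), with a difference of -1.14 and a limma adjusted p of 0.0569. DKO replicate 3, the low liver for the globin genes, was the 1 liver of its group with Alas1 near the control level, at 572 TPM against 168 to 266 in the other 3. Re-expression replicate 1, the other low liver for globin, had 268 TPM of Alas1, the lowest of its group. Alas1 was above Alas2 in all 12 livers. In re-expressing livers against control livers Uros was again the 1 of 8 genes called, against 1.82% of all genes tested (log2 difference 0.42, limma adjusted p = 0.0306). That call was lost under 10 of 25 alternatives with adjusted p up to 0.143.

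Among genes that clear haemoglobin and haem from blood, haptoglobin fell in the DKO-labelled livers. Of 10 tested genes 0 were called higher and 1 lower, against the same 5.33%, with a median of -0.46 beside 0.001 for all genes tested. Hp, which encodes haptoglobin, the plasma protein that binds free haemoglobin and an acute phase protein, went from 5178 ± 1105 to 2306 ± 573 TPM (SD, n = 4), a fall by 1.17 on the log2 scale with limma adjusted p = 0.0192. That call was lost without control replicate 1 or 3, without DKO replicate 2, 3 or 4, and with both livers high in Kupffer cell genes left out, with adjusted p up to 0.0690. Hpx, hemopexin, which binds free haem, stood at 7947 ± 2042 and 4851 ± 400 TPM (SD, n = 4, limma adjusted p = 0.0705). Hmox1, the haem oxygenase that is induced by haem, stood at 39.8 ± 12.3 and 24.2 ± 4.91 TPM (SD, n = 4, limma adjusted p = 0.241). In the re-expressing livers 0 of 10 were called against DKO-labelled or control livers, where 0.0724% and 1.82% of all genes tested were called. Of 11 tested genes of erythropoietic signals and iron hormones 0 were called in each of the 3 comparisons, beside the same shares. Epo, the red cell hormone, named here after its values were seen, had 0 reads in all 12 libraries, which allows up to 3 in each.

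Other blood cells and vessel cells were examined by their own lists beside the globin genes. Platelet genes summed to 12.6 to 17.0 TPM in DKO-labelled livers and 11.6 to 18.1 in control livers, so those groups overlapped. Of 5 tested platelet genes 0 were called, against 5.33% of all genes tested, a share that applies to each list here. Neutrophil genes summed to 9.72 to 21.3 TPM in DKO-labelled livers and 15.2 to 67.4 in control livers, and monocyte genes to 9.33 to 15.9 and 13.1 to 26.1, with 0 of 5 and 0 of 3 tested genes called. Of 5 tested B cell genes and 3 tested T and NK cell genes 0 were called. Many listed genes had a mean under 5 reads a library. These were 7 of 10 platelet, 9 of 12 neutrophil, 3 of 6 monocyte, 1 of 6 B cell and 10 of 10 T and NK cell genes. At such depth 0 calls do not show that these cells were unchanged. The 9 Kupffer cell genes, markers of the macrophages that take up old red cells, had a median difference of -0.36 and 0 calls. Vessel genes were described in the same way. Sinusoidal endothelial genes summed to 267 to 324 TPM in DKO-labelled livers and 219 to 249 in control livers with no overlap. Among single genes the groups did not overlap for 11.5% of all genes tested, a share that does not apply to a sum of 9 genes. The median difference over the 9 sinusoidal genes was 0.34, with 0 calls. All 9 had higher means, and 6 of 9 were higher at an unadjusted limma p under 0.05, against 9.6% of all genes tested. Vwf, von Willebrand factor of larger vessels and platelets, was the 1 of 6 tested large vessel genes called, against 5.33% of all genes tested. It was higher, at 2.51 ± 0.505 TPM in control and 5.06 ± 0.551 in DKO-labelled livers (SD, n = 4, log2 difference 0.79, limma adjusted p = 0.00739). In re-expressing livers the sinusoidal sum was 177 to 266 TPM, overlapping the control range, with a median difference of -0.01 from control livers. The globin sum, at 280 to 735 TPM against 175 to 287, also overlapped, but 3 of 4 re-expressing livers were above every control liver. The part of blood or vessel content in the globin result was not tested.

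The genes whose pattern over the livers was most like that of the members were found by the Pearson correlation of log2(TPM + 1) with the mean of the 5 members, over 12 livers and 12273 named genes. Slc19a1, the reduced folate carrier, was first at 0.96, followed by Prkag2, a regulatory subunit of the energy sensor AMPK, at 0.93 and Celsr1, a cadherin of planar cell polarity, at 0.90. The rest of the first 10 were Cnnm3, Cdip1, Sdr39u1, Nbeal2, Baiap2, Ahsg and Capn15, from 0.86 to 0.89. With group means removed Slc19a1 was again first at 0.93, then Wfdc21 at 0.92 and Sdr39u1 at 0.91, and the others were Slc25a29, Fabp7, Dop1b, Prkag2, Vps9d1, Sfxn1 and Tmem80, from 0.83 to 0.89. The 2 rankings shared 3 genes, Slc19a1, Prkag2 and Sdr39u1, and held 0 genes of the red cell, blood cell or vessel lists. Slc19a1 stood at 7.64 TPM in control livers, 11.2 in DKO-labelled livers and 10.8 in re-expressing livers by mean. These correlations are a description, with no test.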

How the data were processed

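Total RNA of 12 livers was read with a strand-specific total RNA kit, per the labels' protocols. The submitters' processing notes name bcl2fastq 2.17, STAR 2.7.1a, SAMtools 1.9, featureCounts 2.0.1, DESeq2 1.36.0 and build mm10. The deposited table holds TPM values computed by the authors for 48537 genes. It also holds the authors' log2 fold changes and adjusted p-values for numbered comparisons whose groups no header names; comparisons 1 and 2 were used and no other was used here. Columns were matched to samples by the terms YFP, Cre and WT and the replicate number.

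TPM times gene length less a fixed offset gave whole reads for 100% of values, within 0.01 reads, which served for depth and for voom. Genes with a mean of at least 1 TPM were tested with limma 3.58.1 in R 4.3.3 on log2(TPM + 1), which understates changes of low genes: 3 group means, all 12 libraries, 9 residual degrees of freedom, two-sided, with a variance trend, Benjamini-Hochberg over 17957 genes, threshold 0.05. Lists are given as counts and medians, with no test. Alternatives were pseudocounts of 0.1 and 5, no filter or a mean of at least 5 TPM, size factors, quantile normalization, the 8 libraries compared alone, the replicate block, a robust prior, sample quality weights, near copies summed, voom, and each liver left out. The procedure was tested on simulated reads with 1 fixed dispersion for all genes. It thus does not show whether changes in genes as variable as the globin genes would be found. No 2 libraries held identical values, and replicate pairs differed by more than sampling noise. Whether livers come from separate litters or days is not given. The p-values set a difference of group means against the spread between livers within groups, with each gene's variance moderated by a trend over all genes tested.

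The text may name the 5 members, all genes of 4 red cell lists, the 4 genes of lowest p in any other list, 3 hepatocyte genes, and the 10 genes most like the members by each of 2 measures; Nr1d1, Nr1d2 and Apex2 were added to check labels and overlap. One listed gene is not reported here. Members and lists were chosen with earlier results of these data known. Positions, transcripts and coding sequences are from GENCODE release M21, whose exonic lengths equal the table's lengths for all 5 members; promoters are from RefSeq. Python 3.11.15, matplotlib 3.10.9 and statmod 1.5.0 were also used.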

Additional observations from a re-analysis of the deposited data

Results flagged for a closer look

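The 5 genes, their globin sum and 6 ratios or shares gave 36 groups of 4 livers. In 2 of 36 the gap of 1 liver to its nearest neighbour took more of the group's range than Dixon's 95% critical value for 4 values. Chance flags about 1 group in 20, and 2 of 36 is near that share. The groups were not separate checks, since the sum, ratios and shares reuse the same 5 genes. Hba-a1 in control replicate 3 stood at 69.3 TPM against 43.3 to 45.3 in the other 3 control livers, with a gap of 0.924 of the range. Summed beta over alpha globin TPM in control replicate 1 was 2.11 against 1.06 to 1.16 in the other 3, with a gap of 0.905 of the range. That liver also had the highest Hbb-bs and Hbb-bt of the control livers.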

How the results depend on the processing

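The 5 members in 3 comparisons gave 15 results and 363 values under up to 25 alternatives each, of which 349 kept direction and side of the threshold. In DKO against control the count of members called was 0, and 1 with sample quality weights, voom, and the 2 livers highest in Kupffer cell genes left out; leaving out single livers it ran from 0 to 1. In re-expression against control it was 0, and 1 with voom and with those 2 livers left out, and 0 to 1 without single livers. Between re-expressing and DKO-labelled livers 7 globin differences changed sign, each without a single liver: -0.15, -0.04, -0.12 and -0.023 for Hba-a1, Hba-a2, Hbb-bs and Hbb-bt without DKO replicate 3, and -0.20, -0.046 and -0.13 for the first 3 without re-expression replicate 3. Over all alternatives the differences ran from -0.20 to 0.33 for Hba-a1, -0.046 to 0.46 for Hba-a2, -0.13 to 0.30 for Hbb-bs and -0.023 to 0.43 for Hbb-bt. The median member difference ran over all alternatives from 0.63 to 1.11, -0.13 to 0.33 and 0.76 to 1.28 in the 3 comparisons. With the pairs of near copies summed, 0 of 3 features were called in each comparison. Same-numbered livers of different groups had correlations of their deviations from -0.07 to 0.14, with 1 of 12 pairs over 0.1, so the numbers were not taken as pairs; with the replicate block 0 members were called in each comparison. Alternatives for genes other than the members were chosen after the data were seen. Depth limits Hbb-bt most, with 17 reads in control replicate 2.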
